A study of Mus musculus with 10 samples.

Results

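The set described here holds 32 genes of disease-associated microglia, matched by gene symbol and chosen with earlier results of these data known, among the 55453 genes of the deposited count table. All 32 were found in the table and all 32 passed the filter on low counts, which kept 14481 genes. The 10 libraries came from hippocampal microglia of female 3xTg mice older than 15 months, sorted as CD45int CD11b+ cells, with 5 libraries from mice given PBS and 5 from mice given GA (glatiramer acetate, a random polypeptide used as an immunomodulator in multiple sclerosis) at 0.1 mg weekly for about 8 weeks, with a further injection in the first week by the study's methods. All mice of both groups carried the 3xTg transgenes, which include mutated human APP (Swedish) and MAPT under the Thy1.2 promoter, a promoter active in neurons. The mice were retired breeders, and none of the 10 libraries came from mice without the transgenes, so no value below compares the disease model with a healthy brain.

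Library titles consist of a prefix followed by a number. The prefix was 388 for PBS, while GA libraries 394_1 and 394_2 had the prefix 394, and GA libraries 400_1, 400_2 and 400_3 had the prefix 400. The meaning of the prefix was not given, and the prefix and the treatment cannot be told apart. The labels do not say that each library was a separate animal, so p-values measure only the spread between these samples, which may be technical. Totals ran from 32332185 to 38764643 counts, and single members were covered by 69 counts (Lgals1 in 1 library) to 65195 counts (Cd9 in 1 library). Counting error is one part of the spread between libraries given below.

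Disease-associated microglia (DAM) are a state that microglia enter around amyloid plaques and in other settings of neurodegeneration and ageing. In this state the cells lower the genes of resting, homeostatic microglia and raise genes of lysosomes, lipid handling, adhesion and secretion, and full entry into the state requires the receptor Trem2. The members cover these functions: surface receptors and tetraspanins, secreted and matrix proteins, lysosomal and pore proteins, lipid handling, the cytoskeleton, ion and phosphate transport, and transcription factors. In bulk RNA of a sorted population, fewer cells in the state and less RNA per cell cannot be told apart.

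Levels of the members in GA and PBS overlapped, and no difference passed the test across all genes (edgeR's quasi-likelihood F-test with Benjamini-Hochberg adjustment). Of 32 members, 0 passed an adjusted p-value of 0.05, as did 0% of all genes tested, and the lowest adjusted p-value of a member was 0.847. The test of limma-voom called 0 of 32 members (0% of all genes tested), and DESeq2 called 0 of the 31 members it gave a p-value, with none for Cotl1. Over all genes DESeq2 called 2 of the 27495 with an unadjusted p-value (0.00727%), not all of which need have an adjusted one. At an unadjusted p-value under 0.05, 4 of 32 members passed, beside 5.75% of all genes tested. Of these, Kcnj2 and Cst7 were higher in GA, where 2.58% of all genes tested passed, and Cotl1 and Mpeg1 were lower, where 3.17% passed. By sign alone, 20 members were fitted higher in GA and 12 lower, beside 50.1% of all genes tested that were higher, and the median log2 fold change of the members was 0.04, beside 0.00 over all genes tested. In no member did the libraries of the groups separate, beside 0.435% of all genes tested in which all GA libraries lay above all PBS libraries and 0.456% in which all lay below.

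**Figure D1:**
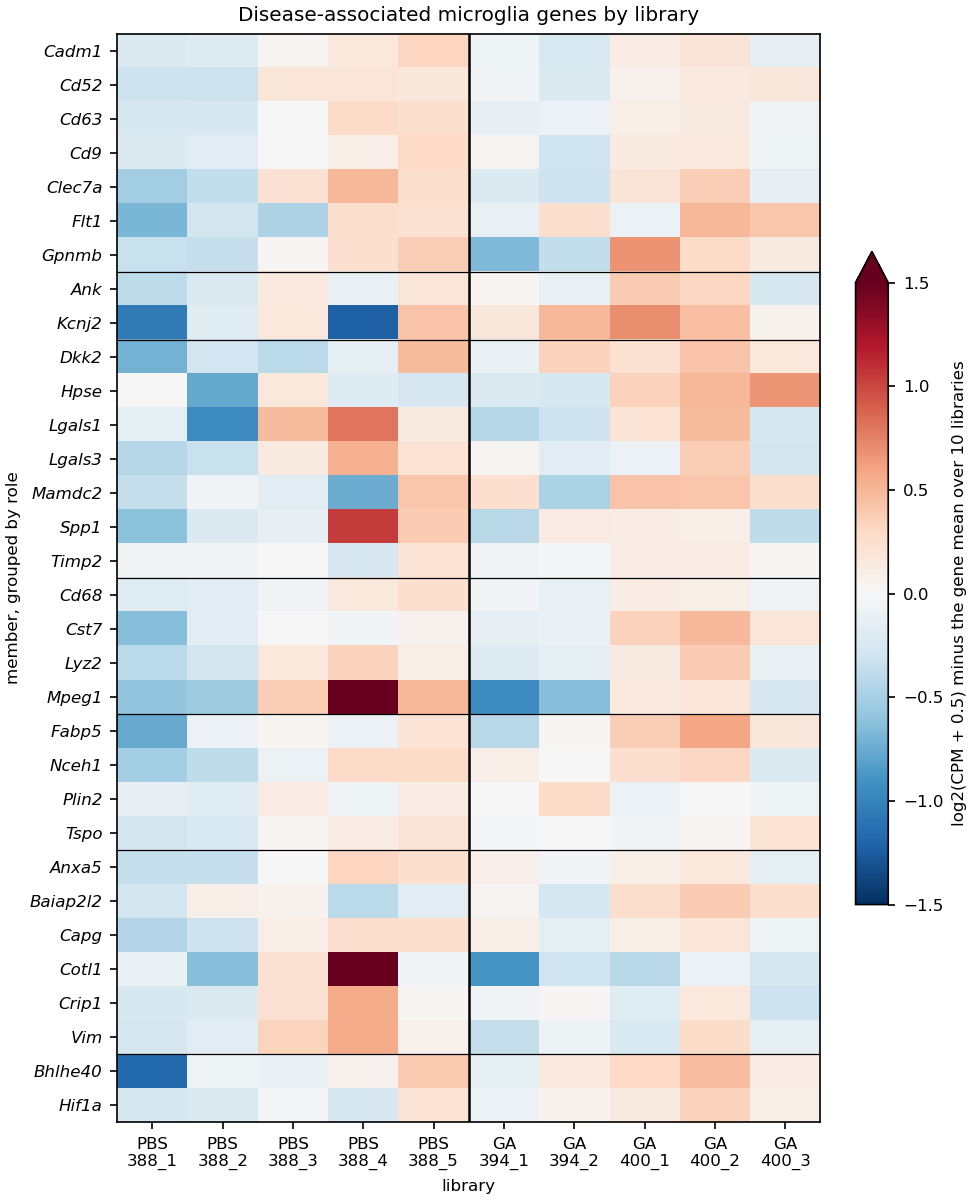
Heat map of the 32 members, grouped by role, in the 10 libraries. Colour gives log2(CPM + 0.5) minus the mean of the gene over all 10 libraries, with the scale capped at its ends, and the vertical line parts PBS from GA. PBS 388_1 is blue for most members, with the lowest value in 16 of them, and PBS 388_4 holds the deepest red (Cotl1 and Mpeg1) and the deepest blue (Kcnj2).

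RefSeq promoter sequence (GRCm38.p6) was matched to 23 of the 32 members, in 25 windows that ran from 250 bases before to 50 bases after a start. Only the 250 bases before the start are printed, for the members with an unadjusted p-value under 0.05 that had an entry (Cst7, Kcnj2 and Mpeg1), for Cd68, the member highest per length, and for Spp1, so that the results below can be read beside the sequence. Each is written 5′ to 3′ on the strand of the gene, and capitals mark matches to a motif on either strand. AGGAAG is a core of ETS factors such as PU.1. For AP-1 the letters searched were TGANTCA. For the M-box of MiT/TFE factors they were TCACGTG. The TATA box was searched as TATAAA.
Cst7, chr2:150570165-150570414, forward strand: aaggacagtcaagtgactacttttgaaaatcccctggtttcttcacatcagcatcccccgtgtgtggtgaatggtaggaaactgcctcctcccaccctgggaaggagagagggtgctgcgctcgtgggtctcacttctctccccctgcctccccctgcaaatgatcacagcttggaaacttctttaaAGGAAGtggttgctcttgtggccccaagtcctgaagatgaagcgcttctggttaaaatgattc
Kcnj2, chr11:111065914-111066163, forward strand: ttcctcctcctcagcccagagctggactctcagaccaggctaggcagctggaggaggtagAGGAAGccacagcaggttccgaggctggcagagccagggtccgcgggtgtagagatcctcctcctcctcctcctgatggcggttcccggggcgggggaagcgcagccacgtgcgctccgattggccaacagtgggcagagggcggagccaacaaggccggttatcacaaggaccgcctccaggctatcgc
Mpeg1, chr19:12460520-12460769, forward strand: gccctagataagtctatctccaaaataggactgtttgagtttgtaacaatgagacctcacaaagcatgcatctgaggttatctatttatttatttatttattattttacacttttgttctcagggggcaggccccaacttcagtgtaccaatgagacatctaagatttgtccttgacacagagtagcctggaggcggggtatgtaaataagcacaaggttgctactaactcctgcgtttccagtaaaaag
Cd68, chr11:69666171-69666420, reverse strand: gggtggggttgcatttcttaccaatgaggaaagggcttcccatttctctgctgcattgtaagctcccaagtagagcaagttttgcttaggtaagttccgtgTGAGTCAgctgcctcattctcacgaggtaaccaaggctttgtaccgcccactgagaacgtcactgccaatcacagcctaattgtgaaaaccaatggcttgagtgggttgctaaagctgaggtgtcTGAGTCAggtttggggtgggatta
Spp1, chr5:104434861-104435110, forward strand: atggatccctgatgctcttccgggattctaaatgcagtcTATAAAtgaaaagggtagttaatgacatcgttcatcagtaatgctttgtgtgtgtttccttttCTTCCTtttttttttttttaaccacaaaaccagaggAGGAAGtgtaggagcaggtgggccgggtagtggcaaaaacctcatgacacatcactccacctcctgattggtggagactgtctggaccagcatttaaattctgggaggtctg

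AGGAAG was found in the windows of 10 members (11 windows, 44% of 25, against 35.4% of 32851 windows of all genes), and Cst7, Kcnj2 and Spp1 were among them. TGANTCA was found in 3 windows (12% against 7.81%), of Cd68, Cst7 and Gpnmb, where the match of Cst7 spans the start (6 of its bases are the last printed, in lower case) and that of Gpnmb lies after it. TCACGTG was found in 3 windows (12% against 3.77%), of Hif1a, Nceh1 and Plin2, and TATAAA in 5 windows (20% against 13.6%), including that of Spp1. The TATAAA of Spp1 begins 211 bases before the start and that of Clec7a lies after the start. Those of Dkk2, Flt1 and Vim begin 32, 31 and 32 bases before it. Mpeg1 held none of the 4 motifs in the printed bases. None of the 4 motifs contains another, and a match is a description of the window only.

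The lysosomal and pore proteins held 2 of the 3 members highest for their length. Cd68, a glycoprotein of late endosomes and lysosomes, had 1205, 1229, 1318, 1528 and 1624 CPM in the PBS libraries and 1326, 1270, 1476, 1458 and 1318 CPM in the GA libraries, with libraries given here and below in the order 388_1 to 388_5 and 394_1, 394_2, 400_1, 400_2, 400_3. PBS 388_5 was highest, PBS 388_1 lowest, and all GA libraries lay inside the PBS range. Per kilobase of exon Cd68 reached 1094 CPM, and its log2 fold change was -0.01 (standard error 0.09, unadjusted p-value 0.894, adjusted p-value 0.991). Lyz2, the lysozyme of macrophages, had 676, 738, 995, 1137 and 959.6 CPM in the PBS libraries and 780.1, 804, 982, 1163 and 829.8 CPM in the GA libraries. Its groups overlapped almost fully, with GA 400_2 highest and PBS 388_1 lowest, and the log2 fold change was 0.02 (standard error 0.14, unadjusted p-value 0.906, adjusted p-value 0.993). The near-identical copy Lyz1 was under 1 CPM in every library, at most 0.720 CPM, though reads shared by the copies could have been assigned to either.

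Cst7 encodes cystatin F, an inhibitor of lysosomal cathepsins and one of the genes most used to mark the DAM state, and lies at chr2:150570415-150578944 (GRCm38). It had 193, 269, 303, 294 and 315 CPM in the PBS libraries and 278, 281, 383, 423 and 343 CPM in the GA libraries. GA 400_1, 400_2 and 400_3 lay above every PBS library, GA 394_1 and 394_2 lay within the PBS range, and PBS 388_1 was far below the other PBS libraries. The means were 275 ± 48.6 CPM (SD, n = 5) in PBS and 341 ± 63.5 CPM (SD, n = 5) in GA, and the log2 fold change was 0.31 (standard error 0.14, unadjusted p-value 0.0393, adjusted p-value 0.854). Without PBS 388_1 it was 0.21 with an unadjusted p-value of 0.0971, and over all alternatives the adjusted p-value ran from 0.508 to 1.

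Mpeg1, which encodes the macrophage pore-forming protein perforin-2 and lies at chr19:12460779-12465283, had 253, 263, 492, 1297 and 539 CPM in the PBS libraries and 199, 246, 424, 432 and 319.7 CPM in the GA libraries. PBS 388_4 stood above every other library, while PBS 388_3 and 388_5 also lay above every GA library, and PBS 388_1 and 388_2 lay inside the GA range. The means were 569 ± 427 CPM (SD, n = 5) in PBS and 324 ± 104 CPM (SD, n = 5) in GA, and the log2 fold change was -0.81 (standard error 0.38, unadjusted p-value 0.0497, adjusted p-value 0.867). Without PBS 388_4 it was -0.26 with an unadjusted p-value of 0.344.

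The same library stood apart for Cotl1, which encodes an actin-binding protein related to cofilin and lies at chr8:119809222-119840544. Cotl1 had 52.5, 35.9, 65.9, 322 and 54.4 CPM in the PBS libraries and 30.1, 45.6, 42.1, 53.0 and 46.8 CPM in the GA libraries, and PBS 388_4 lay far above all others. The log2 fold change was -1.28 (standard error 0.49, unadjusted p-value 0.0193, adjusted p-value 0.847), the lowest fitted value among the members, and without PBS 388_4 it was -0.26 with an unadjusted p-value of 0.147. Vim, the intermediate filament vimentin, Crip1, a LIM-domain protein, Capg, an actin-capping protein, and Anxa5, which binds phosphatidylserine in the presence of calcium, were also highest in PBS 388_4, at 17.97, 13.8, 116 and 114 CPM. Of the 6 cytoskeletal and membrane-binding members, 3 were fitted higher in GA and 3 lower. Baiap2l2, which binds and bends membranes, was the exception in PBS 388_4, where it was lowest at 12.5 CPM, and its log2 fold change was 0.29 (standard error 0.14, unadjusted p-value 0.0585, adjusted p-value 0.872).

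**Figure D2:**
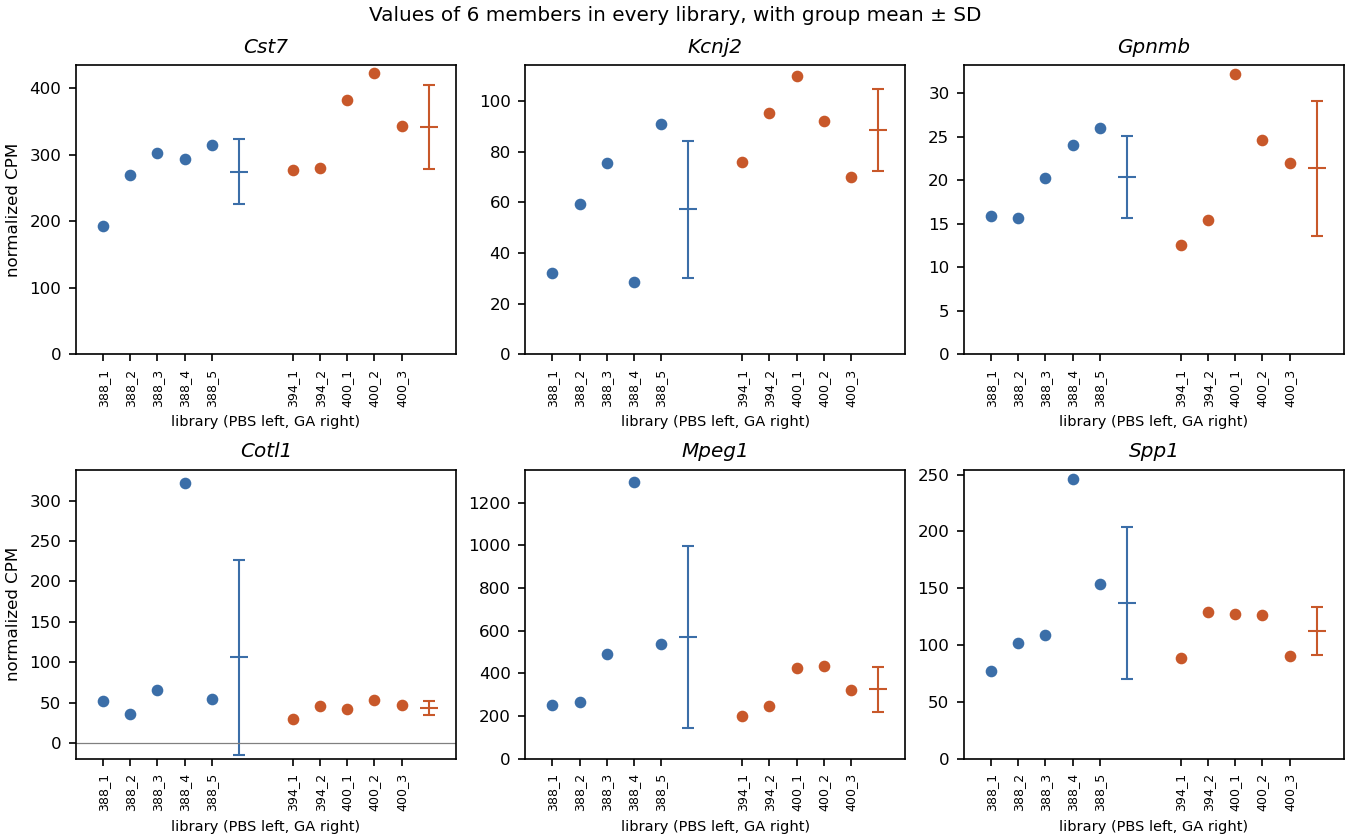
Values of 6 members in each library, as CPM on TMM-scaled library sizes, with the group mean ± SD beside the points (n = 5 per group, PBS blue, GA orange). The 3 GA libraries of prefix 400 lie above every PBS library for Cst7, PBS 388_4 is highest for Cotl1, Mpeg1 and Spp1, and the lower end of the SD bar of Cotl1 in PBS falls below 0.

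PBS 388_4 also held the highest levels of some markers of other cells. The summed level of 8 genes of border-associated macrophages (Mrc1, Cd163, Pf4, F13a1, Lyve1, Cbr2, Ms4a7 and Folr2) was 257 CPM there, against 49.99 to 151 CPM in the other PBS libraries and 49.6 to 196 CPM in GA. All 8 were detected in every library, and the most abundant, the mannose receptor gene Mrc1, ran from 16.1 to 82.8 CPM. The same library had the lowest level of Itgam, the gene of CD11b used in the sort, at 88.7 CPM, against 191 to 299 CPM in all other libraries, and the highest share of mitochondrial counts, at 0.180% against 0.129% to 0.175%. The summed level of 8 neutrophil genes ran from 37.9 to 446 CPM in PBS and from 10.9 to 168 CPM in GA, with all 8 detected in every library and Ngp the most abundant. The 8 monocyte genes summed to 31.8 to 88.5 CPM in PBS, highest in PBS 388_4, and to 36.9 to 47.1 CPM in GA, with Ccr2 the most abundant and F10 and Vcan under 1 CPM. The part of such cells in the results of Cotl1, Mpeg1 and the other members was not tested.

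Among the secreted and matrix proteins, 4 of 7 were fitted higher in GA and 3 lower, with no unadjusted p-value under 0.05. Spp1 encodes osteopontin, a secreted glycoprotein that binds integrins and CD44. It had 76.8, 101, 108, 246 and 154 CPM in the PBS libraries and 88.3, 129, 127, 126 and 90.5 CPM in the GA libraries, and all GA libraries lay inside the PBS range, with PBS 388_4 highest. The log2 fold change was -0.29 (standard error 0.25, unadjusted p-value 0.26, adjusted p-value 0.925), and without PBS 388_4 it was 0.03. The gene shares 309 exon bases with Gm42793 on the same strand, so part of its reads could have been left uncounted or assigned to that gene.

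Hpse encodes heparanase, which cleaves heparan sulfate of the extracellular matrix. It had 5.97, 3.29, 6.72, 5.14 and 4.93 CPM in the PBS libraries and 5.04, 4.97, 7.71, 8.60 and 9.70 CPM in the GA libraries. The GA libraries of prefix 400 lay above every PBS library and those of prefix 394 inside the PBS range, and the log2 fold change was 0.47 (standard error 0.23, unadjusted p-value 0.0649, adjusted p-value 0.875). Dkk2, a secreted modulator of Wnt signalling, had 3.40, 4.69, 4.31, 5.30 and 8.36 CPM in the PBS libraries and 5.42, 7.55, 6.93, 8.07 and 6.61 CPM in the GA libraries. PBS 388_5 was the highest library of all and PBS 388_1 the lowest, and the log2 fold change was 0.41 (standard error 0.22, unadjusted p-value 0.0872, adjusted p-value 0.894). Without PBS 388_5 every GA library of Dkk2 lay above every PBS library, with a log2 fold change of 0.65 (unadjusted p-value 0.0036, adjusted p-value 0.561, in a range of 0.561 to 1 over all alternatives), the only member to separate when 1 library was left out. Without that library, every GA library lay above every PBS library in 1.25% of all genes tested, against 0.435% with all libraries. Without PBS 388_1 the log2 fold change of Dkk2 was 0.29, with an unadjusted p-value of 0.203.

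The galectins Lgals1 and Lgals3, which bind glycans with galactose, had log2 fold changes of -0.22 and -0.07, and both were highest in PBS 388_4, at 8.06 and 30.6 CPM. Without that library the values were 0.009 and 0.08, with the opposite sign, while without PBS 388_2 they were -0.42 and -0.16. Timp2, an inhibitor of matrix metalloproteinases, was among the steadiest members, with a highest library 1.38 times the lowest and means of 1129 ± 129.9 CPM (SD, n = 5) in PBS and 1180 ± 71.7 CPM (SD, n = 5) in GA. Mamdc2, a secreted protein with MAM domains, ran from 5.70 to 13.3 CPM in PBS and from 6.96 to 13.5 CPM in GA.

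Kcnj2 encodes the inward-rectifier potassium channel Kir2.1, lies at chr11:111066164-111076821 and had the largest positive fold change of the members. It had 32.2, 59.5, 75.6, 28.6 and 91.0 CPM in the PBS libraries and 75.8, 95.4, 110.1, 92.0 and 69.9 CPM in the GA libraries. GA 394_2, 400_1 and 400_2 lay above every PBS library, while PBS 388_1 and 388_4 were low and PBS 388_3 and 388_5 overlapped the GA libraries. The means were 57.4 ± 27.0 CPM (SD, n = 5) in PBS and 88.6 ± 16.1 CPM (SD, n = 5) in GA, and the log2 fold change was 0.63 (standard error 0.26, unadjusted p-value 0.0321, adjusted p-value 0.854). It was 0.48 (unadjusted p-value 0.0791) without PBS 388_1, 0.46 (0.0666) without PBS 388_4 and 0.86 (0.00442) without PBS 388_5. The other transport gene, Ank, which moves pyrophosphate out of the cell, had 212 ± 35.0 CPM (SD, n = 5) in PBS and 236 ± 43.4 CPM (SD, n = 5) in GA, and its log2 fold change was 0.16 (standard error 0.13, unadjusted p-value 0.25, adjusted p-value 0.920), which became 0.085 without PBS 388_1 and 0.081 without GA 400_1.

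Among the surface receptors, tetraspanins and adhesion proteins, 3 of 7 were fitted higher in GA and 4 lower, with no unadjusted p-value under 0.05. Cd9, a tetraspanin, was the member second to Cd68 per length, at 742 CPM per kilobase, ahead of Lyz2 at 689. It had 1299, 1344, 1516, 1612 and 1848 CPM in the PBS libraries and 1545, 1227, 1658, 1664 and 1445 CPM in the GA libraries. GA 394_2 was the lowest and PBS 388_5 the highest library, and the log2 fold change was -0.02 (standard error 0.10, unadjusted p-value 0.885, adjusted p-value 0.990). Its partner in the tetraspanin family, Cd63, a protein of late endosomes and exosomes, had 522 ± 91.3 CPM (SD, n = 5) in PBS and 509.5 ± 39.6 CPM (SD, n = 5) in GA. Cd52, a small glycoprotein of the leukocyte surface, had 108 ± 19.6 CPM (SD, n = 5) in PBS and 111 ± 11.7 CPM (SD, n = 5) in GA. Cadm1, an adhesion molecule of the immunoglobulin superfamily, had 318 ± 51.2 CPM (SD, n = 5) in PBS and 307 ± 36.8 CPM (SD, n = 5) in GA. For each of these genes the means differed by less than the SD of either group.

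Clec7a encodes dectin-1, a receptor for beta-glucans that is widely used to mark microglia around plaques. The annotation used for positions (GENCODE M21, GRCm38) lists it as a polymorphic pseudogene, yet it was counted 1472 to 2813 times per library. It ran from 39.4 to 80.8 CPM in PBS and from 45.9 to 73.7 CPM in GA, and the log2 fold change was -0.06 (standard error 0.19, unadjusted p-value 0.742, adjusted p-value 0.976). It was -0.18 without PBS 388_1, 0.07 without PBS 388_4 and 0.007 without GA 394_2, so its sign rested on single libraries. Flt1, the receptor VEGFR1, was the lowest member per length, at 0.886 CPM per kilobase, ahead of Dkk2 at 1.64 and Hpse at 1.77. It had 6.99, 9.47, 8.25, 14.0 and 13.7 CPM in the PBS libraries and 10.7, 13.8, 10.9, 16.5 and 15.5 CPM in the GA libraries, with GA 400_2 and 400_3 above every PBS library and PBS 388_1 lowest. The log2 fold change was 0.36 (standard error 0.20, unadjusted p-value 0.0932, adjusted p-value 0.894), which became 0.49 without PBS 388_4 (unadjusted p-value 0.0282) and 0.25 without PBS 388_1 (0.222). Flt1 is also a gene of endothelial cells. Of 8 endothelial and mural markers, 5 were under 1 CPM in every library, the defining marker Cldn5 was at most 0.244 CPM, and the summed level ran from 54.3 to 62.1 CPM in PBS and from 53.6 to 59.6 CPM in GA. Most of that sum came from Pecam1 (at least 22.96 CPM in every library) and Kdr, another VEGF receptor gene (at least 21.5 CPM).

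The 4 genes of lipid handling had log2 fold changes from 0.05 to 0.31, all above 0 as were those of 50.1% of all genes tested, with no unadjusted p-value under 0.05. Single libraries moved these values. Plin2 went from 0.05 to -0.02 without GA 394_2, and without PBS 388_1 Fabp5 went from 0.31 to 0.17, Nceh1 from 0.14 to 0.04 and Tspo from 0.06 to 0.003. All 4 rose without PBS 388_5, Plin2 to 0.09, Fabp5 to 0.41, Nceh1 to 0.25 and Tspo to 0.12. Fabp5, a carrier of fatty acids, had 6.62 ± 1.59 CPM (SD, n = 5) in PBS and 8.19 ± 2.16 CPM (SD, n = 5) in GA. Nceh1, a hydrolase of cholesterol esters, had 75.2 ± 19.1 CPM (SD, n = 5) in PBS and 82.9 ± 11.9 CPM (SD, n = 5) in GA. Plin2, which coats lipid droplets, was at 42.7 to 52.8 CPM in PBS and at 45.6 to 58.6 CPM in GA. Tspo, an outer mitochondrial membrane protein used as a ligand target in imaging of microglia, had 66.3 ± 9.48 CPM (SD, n = 5) in PBS and 69.1 ± 5.01 CPM (SD, n = 5) in GA. The transcription factor genes were also fitted higher in GA. Hif1a, the oxygen-regulated subunit of HIF-1, had 217 ± 30.6 CPM (SD, n = 5) in PBS and 249.7 ± 27.7 CPM (SD, n = 5) in GA, and its log2 fold change was 0.20 (standard error 0.10, unadjusted p-value 0.0566, adjusted p-value 0.872). Bhlhe40, a basic helix-loop-helix repressor, had 14.6 ± 5.07 CPM (SD, n = 5) in PBS and 17.9 ± 2.88 CPM (SD, n = 5) in GA, with PBS 388_1 lowest at 6.67 CPM. Its log2 fold change of 0.30 became 0.11 without PBS 388_1 and 0.46 without PBS 388_5.

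Exon bases were shared with another annotated gene by 7 members, which were Hif1a (478 bases), Spp1 (309), Cd9 (218), Cd52 (172), Bhlhe40 (118), Ank (65) and Tspo (53). The library kit does not mark strand, so reads of such stretches cannot be told apart where the partner lies on the opposite strand.

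**Figure D3:**
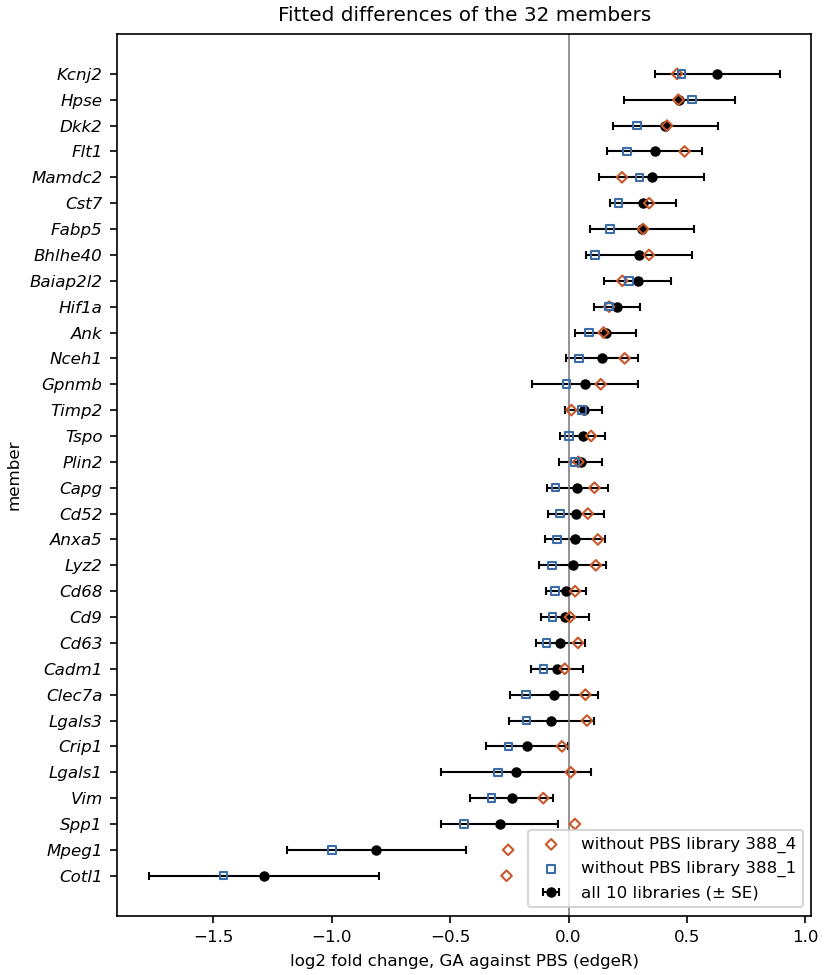
Fitted log2 fold changes of GA against PBS for the 32 members, in order of size, with ± SE bars from edgeR for all 10 libraries (black) and the values without PBS 388_4 (diamonds) or without PBS 388_1 (squares). The 4 members with an unadjusted p-value under 0.05 are Kcnj2, Cst7, Mpeg1 and Cotl1. Cotl1 moves from -1.28 to -0.26 and Mpeg1 from -0.81 to -0.26 when PBS 388_4 is left out.

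The mean log2(CPM + 0.5) over the 32 members, one value per library, was 5.68, 5.80, 6.14, 6.32 and 6.29 in PBS and 5.93, 5.99, 6.24, 6.36 and 6.07 in GA. PBS 388_1 and 388_2 were lowest, GA 400_2 was just above the highest PBS library, and the other GA libraries lay inside the PBS range. The group means were 6.05 ± 0.29 (SD, n = 5) and 6.12 ± 0.18 (SD, n = 5), a difference of 0.07 that was smaller than the pooled SD of 0.24. Over all genes tested the difference was 0.00. The difference of the member mean ran from -0.02 (without PBS 388_1) to 0.14 (without PBS 388_4) when 1 library was left out, and was 0.04 without both of these libraries. Without Cotl1 and Mpeg1 it was 0.12.

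The counts of members also moved when single libraries were left out. Without PBS 388_4, 27 of 32 members were fitted higher in GA (51.2% of all genes tested), and 2 (Cst7 and Flt1) had an unadjusted p-value under 0.05 (4.73% of all genes tested). Without PBS 388_1, 15 were fitted higher (49.9%), and 2 (Cotl1 and Mpeg1) passed (5.85%). The count of members that passed was 7 without PBS 388_5, where 7.72% of all genes tested passed, and 2 without each of GA 400_1, 400_2 and 400_3, where 4.04%, 4.27% and 4.68% passed, beside 5.75% with all libraries.

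**Figure D4:**
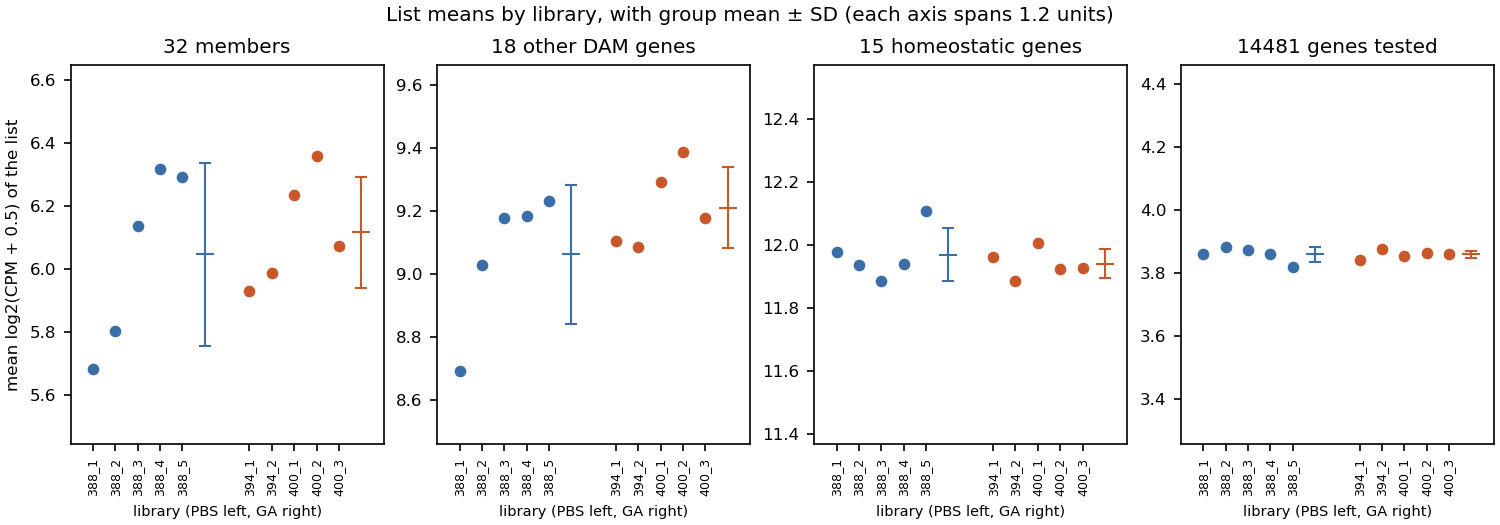
Mean log2(CPM + 0.5) of each list in each library, with the group mean ± SD (n = 5 per group), on axes of equal span. The 32 members spread over 0.64 units within PBS, more than the difference of 0.07 between the groups. The mean of all 14481 genes tested is held nearly level by the scaling, so its small spread is no measure for that of the members.

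Many of the lowest and highest values fell to a few libraries. PBS 388_1 held the lowest value of 16 of 32 members, beside 8.42% of all genes tested, and these 16 included Cst7, Spp1, Clec7a, Lyz2 and Cd68. PBS 388_4 held the highest value of 11 members, beside 20.6% of all genes tested, and the lowest of 4 (Kcnj2, Mamdc2, Timp2 and Baiap2l2), beside 19.8%. GA 400_2 held the highest value of 8 members, beside 6.30% of all genes tested, among them Cst7, Fabp5, Hif1a and Bhlhe40.

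**Figure D5:**
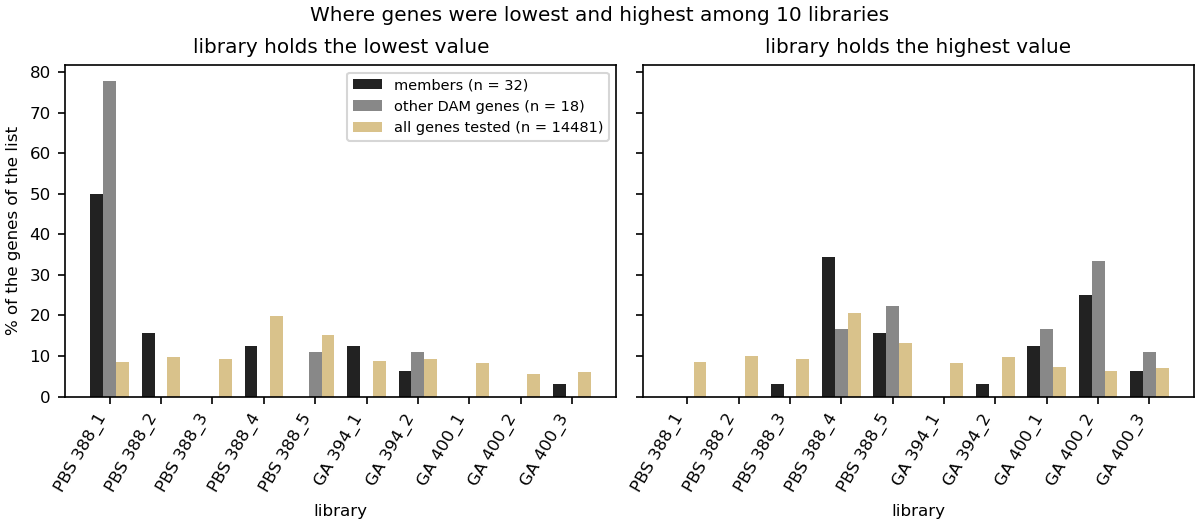
Share of each list (in %) for which a given library held the lowest value (left) or the highest value (right) of the 10 libraries, for the 32 members, 18 other DAM genes and all 14481 genes tested. PBS 388_1 is lowest for 50% of the members and 77.8% of the other DAM genes, against 8.42% of all genes tested.

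The GA libraries of prefix 400 were compared with those of prefix 394 in the same way. By sign alone, 30 of 32 members were fitted higher in prefix 400 (all but Plin2 and Crip1), beside 51.4% of all genes tested, and the mean over members was 5.96 in prefix 394 and 6.22 in prefix 400. None of the members passed the adjusted threshold with edgeR, where 0.0138% of all genes tested did, and 4 members had an unadjusted p-value under 0.05, beside 5.48% of all genes tested. These were Gpnmb, Hpse, Cst7 and Baiap2l2. Gpnmb, a transmembrane glycoprotein of lysosomes and phagocytes that was chosen here after its values were seen, had 15.9, 15.7, 20.3, 24.0 and 26.0 CPM in the PBS libraries and 12.5, 15.4, 32.2, 24.6 and 22.0 CPM in the GA libraries. The GA libraries of prefix 400 all lay above those of prefix 394, which were the lowest of the 10 libraries, and the PBS libraries lay above prefix 394 and overlapped prefix 400. For Gpnmb, prefix 400 exceeded prefix 394 by a log2 fold change of 0.91 (standard error 0.24, unadjusted p-value 0.00217, adjusted p-value 0.461) in edgeR. DESeq2 called Gpnmb with an adjusted p-value of 0.045, among 64 genes called (0.232% of those with an unadjusted p-value). The other alternatives gave adjusted p-values of 0.609 (limma-voom) to 0.915 (without GA 400_2). For GA against PBS, the log2 fold change of Gpnmb was 0.07 (standard error 0.23, unadjusted p-value 0.763, adjusted p-value 0.978). When 1 library was left out it ran from -0.12 (without GA 400_1) to 0.21 (without GA 394_1). The summed neutrophil level was 42.3 and 168 CPM in the libraries of prefix 394 and 10.9, 18.6 and 105 CPM in those of prefix 400. The summed level of border-associated macrophage markers was 49.6 and 89.0 CPM in prefix 394 and 95.5, 196 and 96.4 CPM in prefix 400, without overlap and higher in prefix 400. The part of either in this difference was not tested.

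Genes of the DAM state outside the 32 members were read from a list of 18. Of these, 17 were fitted higher in GA and 1 (Ccl6, a chemokine gene) lower, beside 50.1% of all genes tested that were higher. An unadjusted p-value under 0.05 was found for 1 of 18, beside 5.75% of all genes tested, and 0 passed the adjusted threshold. That one was Csf1, a growth factor of microglia, at 103 ± 22.8 CPM in PBS and 142 ± 13.6 CPM in GA (SD, n = 5 each), and its log2 fold change was 0.47 (standard error 0.13, unadjusted p-value 0.00306, adjusted p-value 0.847). Apoe, the main lipid carrier of the brain, had a log2 fold change of 0.15 (unadjusted p-value 0.204), and Trem2, the receptor needed for the full state, of 0.03 (0.666). The mean over the list was 9.06 ± 0.22 in PBS and 9.21 ± 0.13 in GA on the log2 scale (SD, n = 5 each). PBS 388_1 was lowest for 14 of the 18.

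Of 15 homeostatic microglia genes, 3 were fitted higher in GA and 12 lower, beside 50.1% of all genes tested that were higher, and 0 had an unadjusted p-value under 0.05, beside 5.75%. PBS 388_5 was the highest library for 10 of the 15, P2ry12, Tmem119 and Gpr34 among them, and GA 394_2 the lowest for 5. The purinergic receptor P2ry12, the membrane protein Tmem119 and the receptor Gpr34 had log2 fold changes of -0.12, -0.10 and -0.11, with unadjusted p-values of 0.060, 0.106 and 0.137. The mean over the list was 11.97 ± 0.08 in PBS and 11.94 ± 0.05 in GA (SD, n = 5 each), a spread smaller than that of the members. Markers of microglia, 11 genes, summed to between 51600 and 61510 CPM, with Csf1r the most abundant. Markers of neurons and of lymphocytes summed to at most 1.75 and 1.41 CPM. Astrocyte markers summed to 246 to 353 CPM, mostly Slc1a3, with Aqp4 and Gja1 under 1 CPM, and oligodendrocyte markers to 175 to 218 CPM, mainly from Cnp (91.8 to 123 CPM), Mbp (40.9 to 61.5 CPM) and Mag (28.8 to 42.9 CPM), with Mog under 1 CPM.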

How the data were processed

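RNA of sorted microglia was pre-amplified (SMARTer Ultra Low Input), made into NexteraXT libraries and sequenced as single-end reads of 100 nt. The authors deposited raw counts per gene as whole numbers, without normalization. The submitters' processing notes name bcl2fastq 2.19.0, fastp 0.20.0, STAR 2.7.0f, Subread 1.6.4 with featureCounts, DESeq2 and the build GRCm38.p6. The annotation and strand setting are not given in the sources used here. Each library was assigned by its treatment label.

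Genes were filtered with filterByExpr (minimum count 10), normalized by TMM and tested with edgeR 4.0.16 (R 4.3.3), comparing the treatments alone. Benjamini-Hochberg adjustment ran over 14481 genes, at a threshold of 0.05. The prefixes were compared in a fit with 3 groups. Member means used log2(CPM + 0.5). Levels per kilobase used the union of GENCODE M21 exons. Alternatives were limma-voom 3.58.1, DESeq2 1.42.0, other size factors, filters and pseudocounts, each library left out, either GA prefix alone and the title number as a block. Removing Cotl1 and Mpeg1, or PBS 388_1 and 388_4 together, was chosen after seeing the data. Members and gene lists were chosen with earlier results of these data known. Members were given in every library when they had an unadjusted p-value under 0.05, did not overlap, were among the 3 highest or lowest in fold change or in level per length, or among the 3 highest in spread, and Gpnmb was added. The libraries held no molecular identifiers, so amplified copies of a molecule could be counted more than once.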

Additional observations from a re-analysis of the deposited data

Results flagged for a closer look

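In 4 of 66 groups of 5 libraries, 1 library of a member or of a list mean stood apart from the rest by the ratio of its gap to the whole range of the group on the log2 scale (over 0.710). About 1 in 20 groups does so by chance. Mamdc2 was low in GA 394_2 (ratio 0.792), at 6.96 CPM against 11.8 to 13.5 CPM in the other GA libraries. Plin2 was high in GA 394_2 (ratio 0.739), at 58.6 CPM against 45.6 to 48.7 CPM. Tspo was high in GA 400_3 (ratio 0.713), at 77.8 CPM against 65.5 to 68.8 CPM. Cotl1 was high in PBS 388_4 (ratio 0.724), at 322 CPM against 35.9 to 65.9 CPM in the other PBS libraries.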

How the results depend on the processing

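No member passed the adjusted threshold for GA against PBS in any of the 19 alternatives. The 4 members with an unadjusted p-value under 0.05 became 2 with DESeq2 (4.53% of all genes tested, with no p-value for Cotl1), 7 without a filter on low counts (6.90%), 2 with GA prefix 394 alone (3.24%), 6 with GA prefix 400 alone (6.47%), and 2 to 7 when 1 library was left out (4.04% to 7.72%). The 20 members fitted higher in GA became 13 with GA prefix 394 alone (49.9% of all genes tested), 24 with GA prefix 400 alone (51.0%) and 15 to 27 when 1 library was left out (49.9% to 51.2%). The 0 members without overlap, beside 0.891% of all genes tested, stayed at 0 or became 1. That 1 was Dkk2 without PBS 388_5, where 2.50% of all genes tested did not overlap. The difference of the member mean was -0.09 with GA prefix 394 alone and 0.18 with GA prefix 400 alone, and ran from -0.02 to 0.14 when 1 library was left out. For prefix 400 against 394, DESeq2 called 1 member (0.232% of all genes with an unadjusted p-value) and edgeR 0 (0.0138% of all genes tested). Of 608 fold changes of single members under the alternatives, 596 moved by less than 1 SD, the pooled SD of the member's log2 values within groups. Leaving out 1 of 5 libraries can hardly move a group mean that far, so this count is no measure of stability. In all 19 alternatives 13 members kept their sign, while 19 changed it in some. The cause of these shifts was not tested.

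With the title number as a replicate block, 11 members had an unadjusted p-value under 0.05 (983 of all genes tested, 6.79%), 30 were fitted higher in GA (51.5%) and 0 passed the adjusted threshold. PBS 388_4 and 388_5 have numbers that no GA library has, so they add nothing to the fitted difference in this setting. These counts thus rest on PBS 388_1, 388_2 and 388_3 against GA. The number pairs no samples: it recurs within GA, and the deviations of same-numbered libraries correlated at -0.136 to 0.071. The members with the fewest counts, such as Lgals1 (69 in 1 library), are the least precise.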

Other observations

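The homeostatic genes were also read library by library. PBS 388_5 held the highest value of 10 of the 15 homeostatic genes, beside 13.1% of all genes tested, among them P2ry12 at 7351 CPM, Cx3cr1 at 7847 CPM and Csf1r at 18840 CPM, and it was also highest for 5 members (Cadm1, Cd68, Cd9, Dkk2 and Timp2). PBS 388_1, lowest for 16 members, was lowest for 0 homeostatic genes. GA 394_2 was lowest for 5 homeostatic genes, beside 9.15% of all genes tested. These are descriptions of single libraries and carry no test.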
